A study of Mus musculus with 2 samples.

Results

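The red cell lineage was described in 2 Affymetrix MOE430A arrays of mouse cochlear RNA through 8 genes, *Hba-a1*, *Alas2*, *Slc4a1*, *Ank1*, *Epb42*, *Gata1*, *Klf1* and *Hemgn*. The genes were chosen by their erythroid role and with their differences between these arrays already known, so all values are a description and none carries a test. Every probe set that the array annotation pairs with only 1 of these symbols was taken, which gave 13 of 22626 probe sets that are not controls, and all 8 genes had at least 1. Both arrays came from embryos of heterozygous *Igf1* mutant matings on the C57BL/6J background at E18.5, and the dissected tissue was the cochlea with its otic capsule but without vestibular parts. The *Igf1* null carries a targeted disruption in every cell and dies at birth, and the description of each array gives 8 pooled cochleae. The labels contradict each other on genotype, since by source name and description the array titled −/− holds wild type *Igf1*+/+ tissue and the array titled +/+ holds null *Igf1*-/- tissue. The arrays are therefore called the −/− array and the +/+ array after their titles, and if the source names hold, each direction given here turns round.

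*Igf1* itself was at log2 levels of 11.03, 7.37 and 7.23 on the −/− array, against 11.42, 8.11 and 7.78 on the +/+ array, for its 3 probe sets. All 3 were lower on the −/− array, the direction its title implies, but both arrays had a clear signal, and the genotype was not settled from it. All 15 marker genes of the cochlea and otic capsule were above 0 on both arrays, but so were 20982 of 22626 probe sets. Mean levels of 13 of the 15 exceeded 6.60, the middle value over the probe sets, as did those of 7117 of 12393 genes. Below it lay *Pou4f3*, at 4.97 on the −/− array and 5.03 on the +/+ array, and *Otos*, at 4.16 and 4.21 in that order. *Col2a1* was at 13.45 on the −/− array and 13.42 on the +/+ array and *Coch* at 9.20 and 9.58 in that order. Differences are the −/− array minus the +/+ array on the log2 scale, with the median of all probe sets, 0.022, subtracted. There was 1 array per title and hence no replicate, and precision is limited by having only 2 arrays. A gene with several probe sets offers the only repeat reading. With all probe sets ranked by mean level and divided into 3 equal ranges, the pooled SD between differences of probe sets for the same gene was 1.17 in the low range, below 5.06. It was 0.27 in the middle range and 0.10 in the high range, above 7.68. This SD comes from the same 2 arrays and does not measure variation between pools of cochleae or between hybridisations. Levels of different probe sets are not amounts of RNA, because probes differ in how well they bind, and a level is compared only with that of the same probe set on the other array. Sums of linear levels over marker genes are likewise compared between the arrays over the same probe sets, and the strongest probe sets weigh most in them.

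Red cells carry oxygen on hemoglobin, a protein of α- and β-globin chains that each hold a heme. In the mouse fetus they mature mainly in the liver, where GATA1 and KLF1 switch on the genes of globin, of heme synthesis and of the cell membrane, and they lose the nucleus but keep globin mRNA for a time in the circulation. The cochlea is richly supplied with vessels, in the stria vascularis above all, and the sources used here do not say whether blood was flushed from the tissue. In bulk RNA of this kind, fewer cells of a type and less RNA per cell cannot be told apart.

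Since *Gata1* and *Klf1* encode DNA-binding factors, the promoters of the members were searched for the letters these factors are known to read. RefSeq promoters of the GRCm38.p6 build, from 250 bases before to 50 after the annotated start of the gene, matched 6 of the 8 members, *Hba-a1*, *Alas2*, *Epb42*, *Gata1*, *Klf1* and *Hemgn*. They were searched on both strands for the GATA letters AGATAA and TGATAA and for the letters CCNCNCCC of the CACCC box that KLF factors read, with N for any base. Those of *Hba-a1*, *Alas2*, *Klf1* and *Hemgn* are shown up to the start, as a globin gene, a heme gene, a regulator and the member with the largest difference. Capitals mark GATA letters, which read TTATCT or TTATCA where they lie on the opposite strand. Capitals also mark matches to CCNCNCCC, here all G-rich runs because they lie on the opposite strand.
Hba-a1, chr11:32283422-32283671, plus strand: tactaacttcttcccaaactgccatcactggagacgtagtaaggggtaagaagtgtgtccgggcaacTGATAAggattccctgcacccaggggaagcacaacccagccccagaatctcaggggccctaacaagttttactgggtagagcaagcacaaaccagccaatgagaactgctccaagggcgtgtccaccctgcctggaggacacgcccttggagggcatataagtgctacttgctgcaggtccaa
Alas2, chrX:150547167-150547416, plus strand: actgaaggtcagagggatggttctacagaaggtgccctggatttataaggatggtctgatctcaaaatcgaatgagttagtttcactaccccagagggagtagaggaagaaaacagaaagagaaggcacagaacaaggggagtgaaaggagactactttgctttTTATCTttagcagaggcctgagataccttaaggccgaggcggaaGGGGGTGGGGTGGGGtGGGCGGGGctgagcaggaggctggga
Klf1, chr8:84901732-84901981, plus strand: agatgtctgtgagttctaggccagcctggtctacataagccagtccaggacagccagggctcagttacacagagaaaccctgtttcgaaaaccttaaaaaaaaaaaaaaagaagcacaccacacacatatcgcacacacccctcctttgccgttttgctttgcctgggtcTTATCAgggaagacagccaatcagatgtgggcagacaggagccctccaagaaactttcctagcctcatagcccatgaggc
Hemgn, chr4:46404184-46404433, minus strand: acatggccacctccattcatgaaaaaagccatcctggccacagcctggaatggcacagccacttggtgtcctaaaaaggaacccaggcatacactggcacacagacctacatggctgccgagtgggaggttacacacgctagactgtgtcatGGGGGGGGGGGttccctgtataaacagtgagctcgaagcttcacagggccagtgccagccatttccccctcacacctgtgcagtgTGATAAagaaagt

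GATA letters were found in 5 of the 6 promoters, all but that of *Gata1*, whereas 18.6% of the 32851 promoters in the table hold them. Matches to CCNCNCCC, called CACCC letters here, were found in *Alas2*, *Gata1* and *Hemgn*, and 49.5% of all promoters hold them. The shorter run CACCC was not searched for by itself, and it stands unmarked in the *Hba-a1* and *Klf1* sequences shown. Not every match holds that run, since GGGCGGGG in *Alas2* and the run of G in *Hemgn* do not. *Alas2* and *Hemgn* had both kinds, as do 5.73% of all promoters. Counted from the start, the GATA letters lay at −183 to −178 in *Hba-a1*, at −86 to −81 in *Alas2*, at −226 to −221 in *Epb42* and at −80 to −75 in *Klf1*. *Hemgn* had GATA letters at −13 to −8 and again at 29 to 34 after the start, and its 4 overlapping CACCC matches were all in 1 run of G. The promoter of *Hba-a2*, the second adult α-globin gene, shares an unbroken run of 297 bases with that of *Hba-a1*. These matches describe letters in a window and say nothing of binding.

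**Figure D1:**
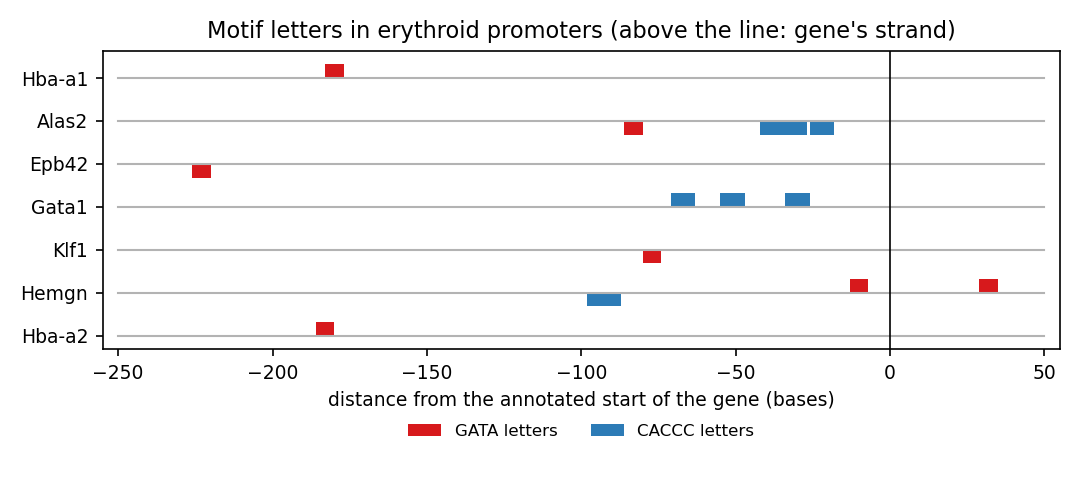
Positions of GATA letters (red) and CACCC letters (blue, matches to CCNCNCCC) in the promoters of 6 members and *Hba-a2*, by distance in bases from the annotated start. Matches on the strand of the gene are above each line and matches on the opposite strand below it. *Gata1* is the member without GATA letters, and *Hba-a1* and *Hba-a2* share theirs, 3 bases apart in the windows.

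Adult globin mRNA was read at the top of the signal range and was nearly equal on the 2 arrays. Because the α-globin genes are almost identical, 3 probe sets are paired with *Hba-a1* and *Hba-a2* together, and 1 more with the adult β-globin symbols *Hbb-bt*, *Hbb-bs*, *Hbb-b2* and *Hbb-b1*. These 4 are outside the 13 and cannot be assigned to any single gene. The strongest α-globin probe set was at 13.36 on the −/− array and 13.27 on the +/+ array, a centred difference of 0.07. The second was at 13.32 on the −/− array and 13.23 on the +/+ array, also a difference of 0.07. The third, at 11.36 on the −/− array and 11.50 on the +/+ array, differed by −0.17 in the opposite direction. The mean over these 3 was −0.01 ± 0.14 (SD between probe sets), and no direction can be read from them. The β-globin probe set was at 13.26 on the −/− array and 13.19 on the +/+ array, a difference of 0.05. Only 10 probe sets on the −/− array and 12 on the +/+ array were brighter than the strongest α-globin probe set, and whether signals of this height still followed the amount of RNA was not tested.

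*Hba-a1* under its own name gave another picture. Its 1 unshared probe set was at 0.67 on the −/− array and 2.60 on the +/+ array, a difference of −1.95, at a level in the low range. The unshared probe set of *Hba-a2* was at 2.93 on the −/− array and 1.24 on the +/+ array, a difference of 1.67. The 2 unshared α-globin probe sets thus lay in opposite directions, at percentiles of 11.2 and 13.4 of mean level over all probe sets. At such low levels no direction of either gene is read from them. The probe sets that read both genes together differed by at most 0.17 in size.

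*Alas2*, the erythroid form of the first enzyme of heme synthesis, was the only member read in the high range of levels. It was at 7.69 on the −/− array and 8.11 on the +/+ array, a difference of −0.44 or 0.739-fold. This is larger than the SD of 0.10 between probe sets of the same gene in this range, but it rests on a single probe set. Its mean level, 7.90, is near the lower bound of the range, 7.68, and in the middle range that SD was 0.27. Neither SD holds variation between pools, so whether the difference exceeds such variation is not known. Its ubiquitous counterpart *Alas1* was at 8.22 on the −/− array and 8.15 on the +/+ array, a difference of 0.04, in its stronger probe set, and at 6.31 and 5.69 in that order in the other, a difference of 0.61.

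The membrane genes did not share a direction. *Slc4a1*, which encodes the chloride and bicarbonate exchanger band 3, was lower on the −/− array in all 3 probe sets. Probe set 1416464_at was at 3.05 on the −/− array and 5.53 on the +/+ array, a difference of −2.50 or 0.176-fold. Probe set 1434502_x_at, whose suffix marks probes that may bind other transcripts, was at 3.90 on the −/− array and 5.37 on the +/+ array, a difference of −1.49. The third, 1431743_a_at, was listed at 0 on the −/− array and at 1.58 on the +/+ array, and no fold is given against 0. These 3 probe sets lie in the low range of levels, and the SD over their differences was 0.56.

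*Ank1*, which encodes the ankyrin that ties band 3 to the spectrin skeleton, was higher on the −/− array in the 2 of its 3 probe sets that had a signal. Probe set 1419421_at was at 7.73 on the −/− array and 6.85 on the +/+ array, a difference of 0.86 or 1.81-fold. Probe set 1425677_a_at was at 6.27 on the −/− array and 4.31 on the +/+ array, a difference of 1.94 or 3.84-fold. Both lie in the middle range, where the pooled SD between probe sets of the same gene was 0.27. Their own differences were 1.09 apart, more than that SD. The mean level of 1425677_a_at, 5.29, is near the lower bound of this range, 5.06, and its value on the +/+ array is below that bound. In the low range the pooled SD was 1.17. The third probe set of *Ank1* was listed at 0 on both arrays, and the SD over all 3 differences was 0.98. *Ank1* is not confined to red cells, since short ankyrin forms of the same gene are made in striated muscle. All 9 genes of a skeletal muscle list were higher on the −/− array, 5 of them by more than 1, where 6754 of all 12393 genes were higher and 5.54% were above 1, and their summed linear level was 24915 on the −/− array and 15275 on the +/+ array, with none at 0. Their part in the *Ank1* difference was not tested.

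*Epb42*, whose protein 4.2 binds band 3 at the inner face of the membrane, was near the floor. Its probe set 1417337_at was at 1.81 on the −/− array and listed at 0 on the +/+ array, and 1417338_at was listed at 0 on both. Over the 8 probe sets of the 3 membrane genes, 3 were lower on the −/− array, 3 were higher and 2 were equal at 0.

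Among the regulators, *Gata1* was on the opposite side from *Klf1* and *Hemgn*. *Gata1*, a transcription factor also of megakaryocytes and mast cells, was at 5.43 on the −/− array and 4.96 on the +/+ array, a difference of 0.45 in the middle range of levels. *Klf1*, which activates adult β-globin and most of the red cell programme, was at 3.76 on the −/− array and 4.74 on the +/+ array, a difference of −1.01. It stands at the limit of 1 log2 unit used below and was inside it, at −0.99, without centring. *Hemgn*, which encodes hemogen, a nuclear protein of blood precursors, was at 0.26 on the −/− array and 2.77 on the +/+ array, a difference of −2.53 and the largest of the 13. Each of the 3 was read by a single probe set, so none of these directions has a second reading. The *Klf1* and *Hemgn* differences lie in the low range, where the SD between probe sets of the same gene was 1.17, and the *Klf1* difference is smaller than that SD.

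**Figure D2:**
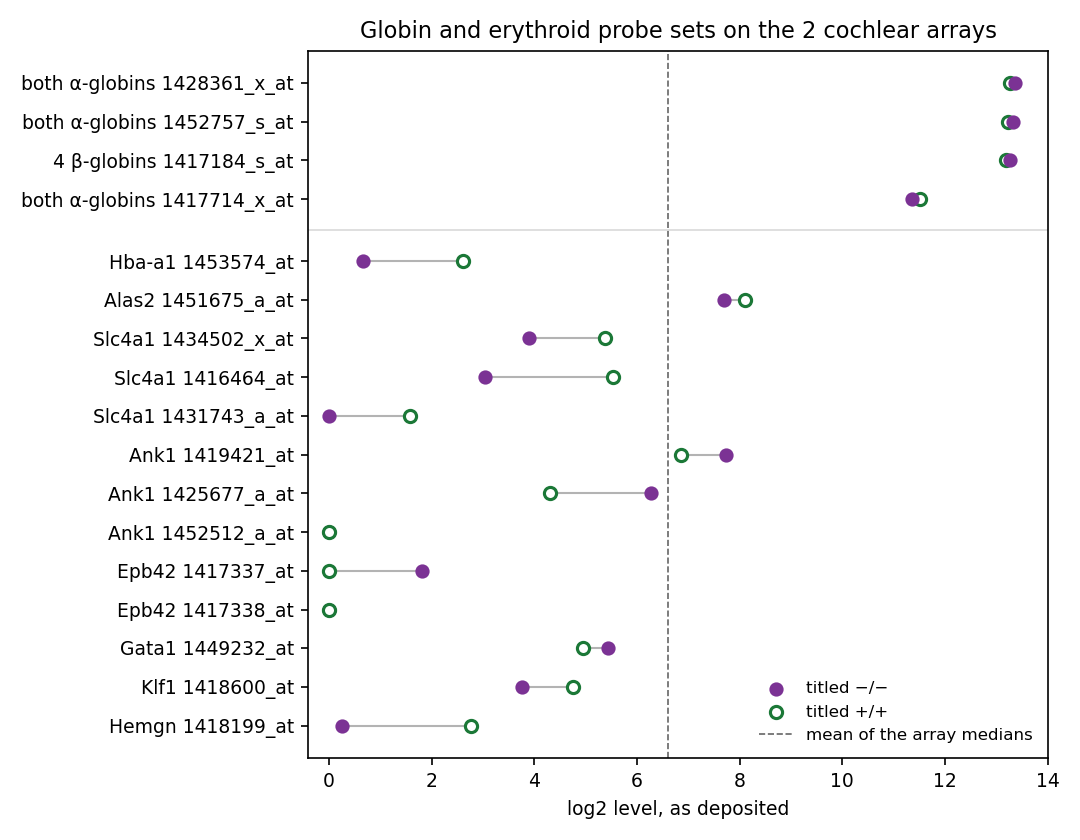
Log2 level of 4 probe sets shared by several globin genes (top) and of the 13 member probe sets on the −/− array (filled purple) and the +/+ array (open green), with 1 value per array and no error, and the dashed line at the mean of the array medians. The shared globin pairs lie on top of each other at 11.36 to 13.36, whereas *Slc4a1*, *Hba-a1*, *Klf1* and *Hemgn* are shifted left on the −/− array and *Ank1* is shifted right.

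At a limit of 1 log2 unit, 6 of the 13 member probe sets were below −1 and 2 were above 1, with a median of −0.44. Over all probe sets, 5.04% were below −1 and 6.27% above 1. The 6 are the 3 probe sets of *Slc4a1* and those of *Hba-a1*, *Klf1* and *Hemgn*, and the other 2 belong to *Ank1* and *Epb42*. Since these differences were known when the genes were chosen, nothing is read from the gap to the background. In the low range of levels lay 9 of the 13, with 6 below −1 and 1 above 1, where 14.5% of all probe sets are below −1 and 17.6% above 1. In the middle range lay 3, 1 of *Gata1* and 2 of *Ank1*, all higher on the −/− array and 1 of them above 1, where the shares over all probe sets are 0.477% and 0.955%. The high range held *Alas2* alone, inside the limit, with 0.0928% and 0.252% of all probe sets beyond it. Of the 9 member probe sets above 0 on both arrays, 5 were below −1 and 1 above 1, and over all such probe sets the shares were 4.63% and 5.42%.

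With values below the 25th percentile of both arrays, 4.11, raised to it, 2 of the 13 were below −1, both of *Slc4a1*, and 1 was above 1, that of *Ank1*. The shares over all probe sets were not counted for raised values. The differences of *Hba-a1*, *Hemgn*, *Epb42* and the *Slc4a1* probe set 1431743_a_at then became 0, because both values lay below that level. That of *Klf1* became −0.63. The median over the 13 also became 0.

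**Figure D3:**
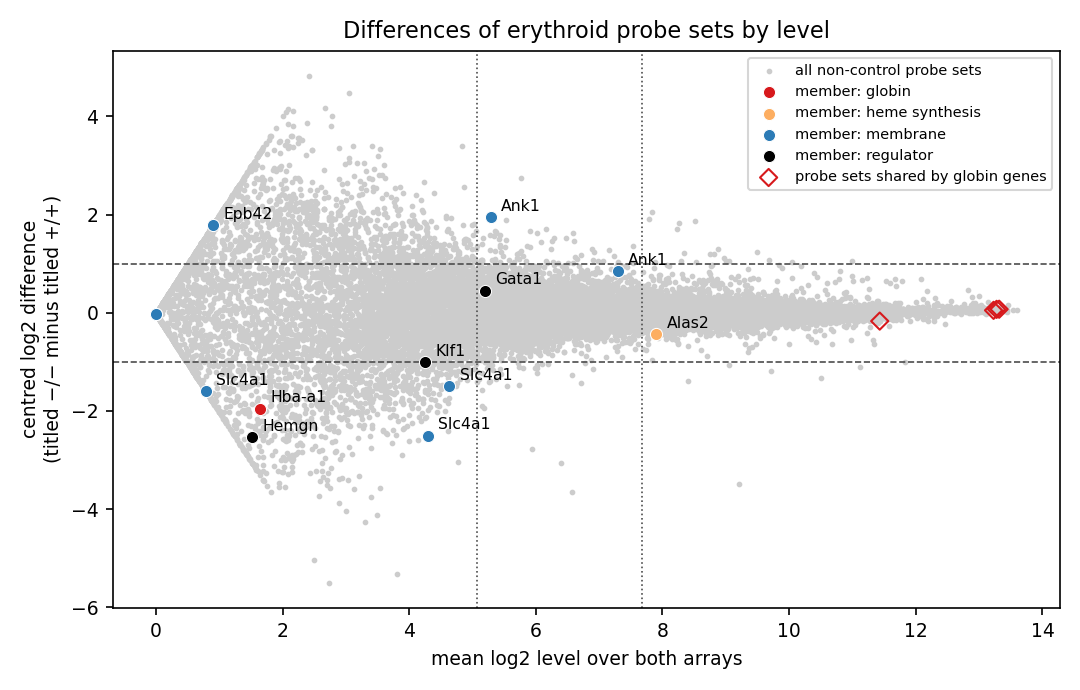
Centred log2 difference (−/− array minus +/+ array) plotted by mean log2 level, each point being a probe set, with members coloured by role, and open diamonds for the 4 probe sets shared by globin genes. Dashed lines mark 1 and −1 and dotted lines the bounds of the level ranges at 5.06 and 7.68, and the members below −1 all lie left of the first dotted line, while the shared globin probe sets lie within 0.17 of 0.

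Other genes of the red cell were taken from 5 lists by role, each gene being read by its probe set of highest mean level. Over all 12393 genes measured in this way, 4.07% were below −1 and the share above 1 was that given for *Ank1*, with a median of 0.00. In heme synthesis and breakdown, 17 of 18 listed genes were measured, 10 were lower and 7 higher on the −/− array, none was beyond 1 in either direction, and the median was −0.04. The 4 genes of the highest level were heme oxygenase 2, *Hmox2*, with a difference of −0.03, ferrochelatase, *Fech*, which inserts the iron, with −0.06, *Alad*, the second enzyme of the pathway, with −0.24, and *Alas1* with 0.04. All 4 probe sets of *Fech* were lower on the −/− array, by −0.06 to −0.48. The mitochondrial iron importer of red cells, *Slc25a37*, chosen after its value was seen, differed by −0.43, at 7.81 on the −/− array and 8.22 on the +/+ array. Biliverdin reductase B, *Blvrb*, chosen likewise, differed by −0.46, at 7.03 on the −/− array and 7.47 on the +/+ array. In the opposite direction, the heme exporter gene *Flvcr1* differed by 0.34, the mitochondrial transporter gene *Abcb10* by 0.31 and the enzyme genes *Uros* and *Ppox* by 0.17 each, all chosen after their values were seen.

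Of the globin list, 6 of 14 genes were measured under a symbol of their own, 4 higher and 2 lower on the −/− array, with 2 below −1, *Hba-a1* and *Hbb-bh1*, and 1 above 1, *Hba-a2*. The median of 0.33 has no stable direction, since it was −0.54 as a mean over the probe sets of each gene and −0.69 without probe sets ending in _x_at or _s_at. The embryonic ζ-globin *Hba-x* was at 5.30 on the −/− array and 4.72 on the +/+ array, a difference of 0.56. The embryonic β-like *Hbb-y* differed by 0.66 in its strongest probe set and by −1.19 and −1.49 in the others, all in the low range. *Hbb-bh1* was at 0.37 on the −/− array and 2.34 on the +/+ array in 1 probe set and was listed at 0 on both arrays in its other 2. *Hbb-b2* differed by 0.10 in its strongest probe set, at 6.70 on the −/− array and 6.58 on the +/+ array, and by −0.92 in the other.

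In the list of membrane and skeleton genes, 22 of 26 were measured, 14 lower and 8 higher on the −/− array, with 3 below −1, 1 above 1 and a median of −0.19. The 3 were *Slc4a1*, the blood group gene *Ermap* at −1.06 and *Icam4* at −1.58, a red cell adhesion molecule, and the 1 was *Epb42*, all in the low range of levels. At the highest levels, the adducin gene *Add1* differed by 0.01, the water channel gene *Aqp1* by −0.18, the glucose transporter gene *Slc2a1* by −0.19 and the palmitoylated membrane protein gene *Mpp1* by 0.02. These 4 are expressed in many other cell types as well.

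Of the regulators, 26 of 27 were measured, 11 lower and 15 higher on the −/− array, with a median of 0.01. *Klf1*, *Hemgn* and *Zbtb7a*, a repressor of fetal globin in human cells, were below −1, the last at −1.44, and none was above 1. The 4 of the highest level, the LIM-binding cofactor *Ldb1*, the kinase *Jak2* of the erythropoietin receptor, *Klf3* and *Foxo3*, differed by 0.04, 0.10, 0.04 and −0.05. The erythropoietin receptor gene *Epor* was at 4.61 on the −/− array and 4.57 on the +/+ array, and *Tal1*, a partner of GATA1, at 5.46 on the −/− array and 5.65 on the +/+ array, both chosen after their values were seen.

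Of genes for iron handling and red cell enzymes, 21 of 24 were measured, 9 lower and 12 higher on the −/− array, with a median of 0.03. The heavy chain of ferritin, *Fth1*, and the peroxiredoxin *Prdx2* differed by 0.07 and −0.02, and the iron-sensing aconitase *Aco1* and the nuclear exporter *Xpo7* by −0.19 and 0.09. *Tspo2*, an erythroid translocator protein, was the 1 gene beyond the limit, at 1.39 on the −/− array and 3.34 on the +/+ array, a difference of −1.97. *Tfrc*, the receptor that takes up transferrin iron, differed by 0.07 in its strongest probe set. Its other probe sets, both in the low range, differed by 0.84 and −1.04. Over the 5 lists without the 8 members, 84 genes were measured. Of these, 25 were in the low range, with 5 below −1 and 1 above 1 and a median size of difference of 0.57. Over all genes in the low range, 13.8% were below −1 and 17.9% above 1. None of the 29 in the middle range or the 30 in the high range was beyond 1, and the median sizes there were 0.16 and 0.08.

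**Figure D4:**
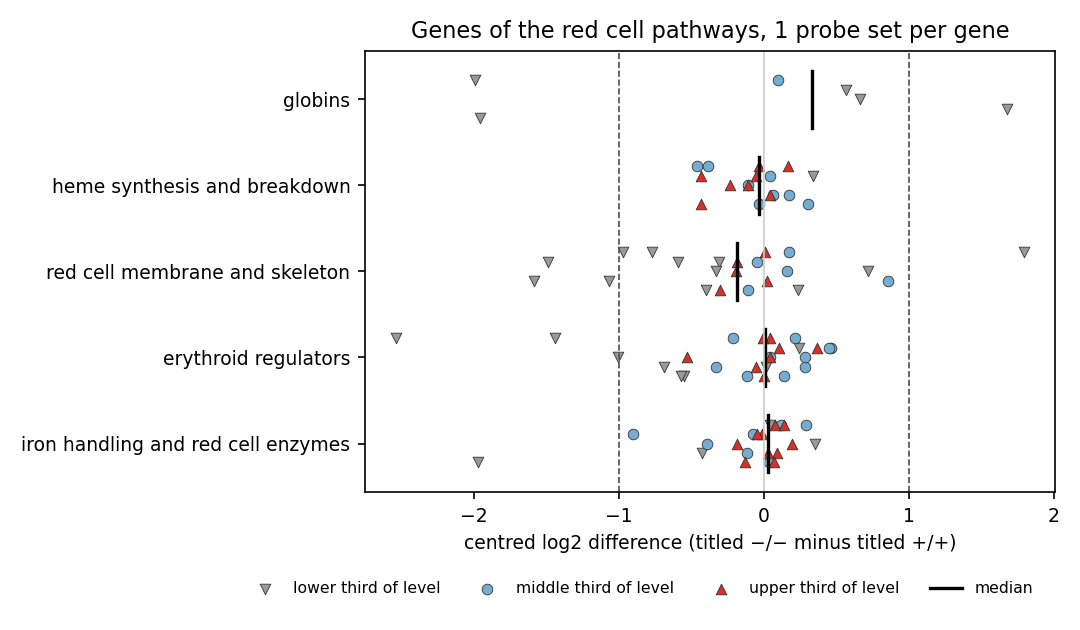
Centred log2 difference (−/− array minus +/+ array) of the genes of 5 red cell lists, with 1 probe set per gene, symbols for the range of mean level (low, middle or high) and a bar at the median. All points beyond 1 or −1 are of the low range, and the medians lie between −0.19 and 0.33.

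Marker genes of other cells also differed between the arrays. Of 12 liver genes, 10 were measured, 6 were lower and 3 higher on the −/− array, and 1, *Fgb*, was listed at 0 on both. Their summed linear level was 73.3 on the −/− array and 192 on the +/+ array. Albumin, *Alb*, was at 4.22 on the −/− array and 6.14 on the +/+ array and α-fetoprotein, *Afp*, at 1.18 and 5.42 in that order, while *Ahsg* was listed at 0 on the −/− array. The 3 higher on the −/− array were *Ambp*, *Apoa2* and *Fgg*, by 1.20, 1.06 and 0.67, and of the 10 genes 5 were below −1 and 2 above 1. All but *Alb* were in the low range of levels, where 13.8% of all genes were below −1 and 17.9% above 1. All 8 genes of lung epithelium were lower on the −/− array, as were 5347 of all 12393 genes. Of the 8, 6 were below −1, against 4.07% of all genes. None was at 0, and their summed levels were 329 on the −/− array and 2735 on the +/+ array. The strongest, the surfactant gene *Sftpc*, was at log2 levels of 7.47 on the −/− array and 10.94 on the +/+ array. The part of liver and lung transcripts in the *Slc4a1*, *Klf1*, *Hba-a1* and *Hemgn* differences was not tested. Of 8 measured genes of megakaryocytes and platelets, cells that share *Gata1* with the red cell line, 5 were lower and 2 higher on the −/− array, *Gp9* was listed at 0 on both, and the summed levels were 768 on the −/− array and 806 on the +/+ array. Platelet factor 4, *Pf4*, was at 8.88 on the −/− array and 8.93 on the +/+ array, a difference of −0.07.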

How the data were processed

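Processed values of 2 arrays were used, 1 per title, and no group has a replicate. The authors hybridised biotin-labelled cRNA to MOE430A arrays, and each probe set has a deposited log2 level of 0 to 13.64, where exact zeros occur. The methods name MAS5.0, RMA and multi-mgMOS (PUMA package), without versions, and the sources used here do not state which tool gave these values. That the log base is 2 follows from the maximum, which exceeds 11.09, the natural log of a full 16-bit intensity, but not 16, its log2. Scaling and centring between the arrays are unknown.

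Of 22690 probe sets, 64 controls were left out. Of the rest, 20380 have 1 gene symbol in the platform annotation, 691 have several and 1555 have none, and symbols were updated through gene identifiers (20351 matched in RefSeq, GRCm38.p6). For each probe set the difference, −/− array minus +/+ array, was centred on the median. A gene of a list is given by its probe set of the highest mean level. No test was made. The members and lists were chosen with earlier results of these data known. Named are all member probe sets, the 4 genes of the highest level in each pathway list, and any gene of those lists beyond 1 log2 unit above the median level. Genes described in the text as chosen after their values were seen are named as well. In the marker lists, genes beyond 1 log2 unit are not all named. Few-gene counts and marker genes are named beyond this rule, as are further probe sets of globin genes. Alternatives were no centring, quantile normalization, loess with a span of 0.3, values raised to the 25th percentile, omission of probe sets ending in _x_at or _s_at, means over probe sets, a limit of 2, only probe sets above the median level and, added after the data were seen, only those above 0 on both arrays. Centring, quantile normalization and loess were tested on simulated data, whose noise was the same at all levels and far smaller than the low-range SD between probe sets. The other steps were not tested in this way, and nothing about the differences given here is read from that check. Python 3.11.15, numpy 2.4.6, pandas 2.3.3, statsmodels 0.14.6 and matplotlib 3.10.9 were used.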

Additional observations from a re-analysis of the deposited data

How the results depend on the processing

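No paired analysis was possible because each title has 1 array. Without centring, after quantile normalization and after loess, each of the 11 differences with a signal on at least 1 array moved by less than the spread between probe sets at its level. With values raised to the 25th percentile, 2 member probe sets were below −1 and 1 was above 1, against 6 and 2 as deposited, and 4 of the 11 differences moved by more than that spread. At a limit of 2 log2 units, 2 were below and 0 above. The shares over all probe sets were not counted at that limit or for raised values, so nothing is read from these counts. With only probe sets above 0 on both arrays, 5 were below −1 and 1 above 1. The median over the 13 probe sets, −0.44, was 0.21 over the 2 above the median level, *Alas2* and *Ank1*, −0.23 without probe sets ending in _x_at or _s_at and −1.01 over those above 0 on both arrays. As means over the probe sets of each gene, the median of the iron and enzyme list was −0.04, against 0.03 otherwise. Of the 13 probe sets, 9 were read in the low range of levels, below 5.06, where probe sets of the same gene differed most from each other.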

Other observations

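Other blood lineages were read from lists of marker genes, and the genes named were chosen after their values were seen. Of 10 measured genes of granulocyte precursors, 7 were higher and 3 lower on the −/− array, with a median of 0.32, and *S100a8* was at 8.16 on the −/− array and 7.69 on the +/+ array. *Mpo* was at 0.27 on the −/− array and 3.06 on the +/+ array, and *Camp* at 3.76 on the −/− array and 2.44 on the +/+ array. Both are in the low range of levels, where 13.8% of all genes were below −1 and 17.9% above 1. Of 10 macrophage genes, 6 were higher and 4 lower on the −/− array, with a median of 0.02, and the receptor gene *Csf1r* was at 10.01 on the −/− array and 10.05 on the +/+ array. Of 8 endothelial genes, 7 were higher on the −/− array, with a median of 0.28 and summed linear levels of 2175 on the −/− array and 1941 on the +/+ array. Of 10 measured genes of lymphoid cells and progenitors, 7 were higher and 3 lower on the −/− array, with a median of 0.18. Above 1 were 3 of them, all in the low range of levels, where 17.9% of all genes were above 1. The B cell receptor gene *Cd79a* was at 4.95 on the −/− array and 2.61 on the +/+ array, the T cell receptor gene *Cd3e* at 2.73 on the −/− array and 0.92 on the +/+ array, and the progenitor receptor gene *Flt3* at 3.57 on the −/− array and 1.95 on the +/+ array. *Cd34*, the strongest of the list, was at 8.58 on both arrays.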
